A study of Homo sapiens with 6 samples.

Results

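The miR-132/miR-212 cluster holds 2 microRNA hairpins, MIR132 and MIR212, and was read as its 4 mature arms, hsa-miR-132-3p, hsa-miR-132-5p, hsa-miR-212-3p and hsa-miR-212-5p. The members were chosen by name, and all 4 were found among the 28846 small RNA entries of the count tables. Of these entries, 2596 are microRNAs, predicted ones included. All 4 also passed the filter on low counts that left 598 microRNAs for testing. The counts come from K562, a human erythroleukemia line that can be driven towards erythroid or megakaryocytic features. The cells had been transduced with SIEW, an empty lentiviral vector that expresses GFP, as control, or with SIEW RUNX1, which carries human RUNX1 as well as GFP. There were 3 samples of each condition, from independent transductions, and RNA was taken after 10 days in culture. Both conditions therefore carry the vector and GFP, and all samples come from a single cell line. RUNX1 messenger RNA is not read by small RNA sequencing, so the transgene was not checked here.

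A microRNA hairpin is cut into a short duplex, and either of its strands, named 5p and 3p for the side of the hairpin they come from, can be loaded into an Argonaute protein. The loaded strand finds its targets mainly through the seed, bases 2 to 8 from its 5′ end. The miR-132/miR-212 cluster is best known from neurons, where its transcript is induced by the transcription factor CREB, and from innate immune cells, where Toll-like receptor signals raise miR-132. The question here is how each arm stood in RUNX1-overexpressing cells against empty-vector cells.

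The mature sequences are shown first because the members share seeds in part and the arms are compared below. They were taken from RefSeq (GRCh38.p14) and are printed 5′ to 3′ with the seed in capitals. The deposited counts were made on hg19, and no coordinate was carried from one build to the other.
hsa-miR-132-3p: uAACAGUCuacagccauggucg
hsa-miR-212-3p: uAACAGUCuccagucacggcc
hsa-miR-132-5p: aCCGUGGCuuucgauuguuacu
hsa-miR-212-5p: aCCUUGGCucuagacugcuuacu

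The 3p arms of both hairpins carry the same seed, AACAGUC. Their first 9 bases are identical, and 17 of 21 positions match from the 5′ end. No other of the 2370 RefSeq mature microRNAs has this seed. The 5p arms do not share a seed, since CCGUGGC of hsa-miR-132-5p and CCUUGGC of hsa-miR-212-5p differ at 1 of 7 bases. Neither 5p seed occurs in any other RefSeq mature microRNA. How reads that match more than 1 microRNA were assigned is not given in the sources used here.

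Both hairpins lie on the minus strand of chromosome 17, and the RefSeq precursors are shown to place the arms within them, with the mature arms in capitals and the 5p arm first. MIR212 lies at chr17:2050271-2050380 and MIR132 at chr17:2049908-2050008 (GRCh38.p14).
MIR212: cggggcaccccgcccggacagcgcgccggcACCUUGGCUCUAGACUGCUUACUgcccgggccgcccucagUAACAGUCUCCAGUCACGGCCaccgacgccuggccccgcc
MIR132: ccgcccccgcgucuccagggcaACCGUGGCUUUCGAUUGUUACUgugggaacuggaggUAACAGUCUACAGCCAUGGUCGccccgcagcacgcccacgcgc
The hairpins are 110 and 101 bases long and 262 bases lie between them, so that the cluster spans 473 bases. Their G and C content is 73.6% for MIR212 and 65.3% for MIR132. The loop between the arms is 17 bases in MIR212 and 14 in MIR132.

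No other gene of GENCODE 29 overlaps either hairpin, so the cluster is intergenic in that annotation. In RefSeq, the non-coding RNA LOC124903896 overlaps 42 bases of MIR132. The nearest protein-coding genes in RefSeq are HIC1, a transcriptional repressor gene 4722 bases away, and DPH1, a diphthamide synthesis gene 6009 bases away.

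**Figure D1:**
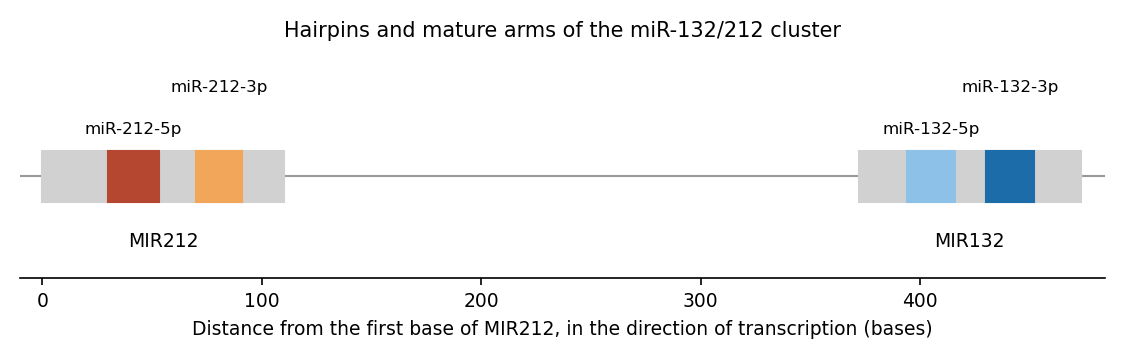
The map shows the MIR212 and MIR132 hairpins (grey) and their mature arms (colours) to scale, by distance in bases from the first base of MIR212 in the direction of transcription. MIR212 comes first and MIR132 follows after 262 bases, with the 5p arm ahead of the 3p arm in each.

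Total small RNA counts ranged from 1618248 to 6193319 in control and from 7918551 to 15245007 in RUNX1 samples. hsa-miR-10a-5p alone took 5.81 to 7.02% of these counts in control and 24.5 to 29.3% in RUNX1 samples. Levels are given as CPM, the read counts scaled to a library of common size with TMM factors, and 1 CPM stood for 2.09 reads in control replicate 1, the shallowest sample, and for 6.25 to 11.5 reads in the other samples. edgeR's quasi-likelihood test was used, and a small RNA counted as altered when its P-value was under 0.05 and its log2 fold change was 0.5 or more either way. By this rule, 22.6% of the tested microRNAs were altered downwards (135) and 33.4% upwards (200), so a fall is common here. Scaling by library size alone turned this split to 292 down and 91 up, and TMM on microRNAs only to 177 down and 162 up. The library names of the 2 conditions are marked with different letters. Should the letters stand for batches of library preparation, batch and condition cannot be told apart.

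The cluster's arms hsa-miR-212-5p, hsa-miR-212-3p and hsa-miR-132-5p fell in RUNX1-overexpressing cells, the first by far the most, and hsa-miR-132-3p, the most abundant arm, missed the fold threshold. The 3 arms stand against the 22.6% of tested microRNAs that were altered downwards. With the adjusted P-value in place of the P-value, the same number was called, against 20.7% of tested microRNAs. For each of the 4 arms, all RUNX1 samples lay below all control samples, which was so for 25.4% of the tested microRNAs. The median log2 fold change of the 4 arms was -0.83, and that of all tested microRNAs was 0.11.

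hsa-miR-212-5p is the 5p strand of MIR212 and was its more abundant arm in control cells. Control replicates 1 to 3 had 246, 978 and 854 counts of it, and RUNX1 replicates 1 to 3 had 255, 82 and 71. This came to 118, 121 and 112 CPM in control and to 22.1, 13.1 and 10.4 CPM in RUNX1-overexpressing samples. The control samples lay close together, whereas RUNX1 replicate 1 was higher than the other two RUNX1 samples. Mean CPM was 117 ± 4.48 for control and 15.2 ± 6.15 for RUNX1 (SD over 3 samples, as for all means given here). The log2 fold change was -2.92 with a standard error of 0.26 (edgeR, adjusted P = 1.74e-05). Among the 598 tested microRNAs, hsa-miR-212-5p ranked 11 from the lowest fold change, and its place by level went from 129 in control to 277 in RUNX1 samples.

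hsa-miR-212-3p, the other strand of MIR212, shares its seed with hsa-miR-132-3p. The control replicates gave 57, 217 and 240 counts, and the RUNX1 replicates 187, 65 and 113. Scaled, the control level was 27.3, 26.9 and 31.6 CPM, and the RUNX1 level 16.2, 10.4 and 16.5 CPM. The lowest RUNX1 sample was replicate 2, and no RUNX1 sample reached the lowest control. The mean went from 28.6 ± 2.61 to 14.4 ± 3.44 CPM, a log2 fold change of -0.99 with a standard error of 0.20 (edgeR, adjusted P = 0.0026). By fold change it ranked 93 from the lowest of the 598.

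hsa-miR-132-3p is the strand of MIR132 to which most of the work on miR-132 refers. It was counted 325, 1249 and 1217 times in the control replicates and 1280, 640 and 877 times in the RUNX1 replicates. The scaled levels were 155, 155 and 160 CPM for control against 111, 102 and 128 CPM for RUNX1. The groups did not overlap, and the RUNX1 samples spread more widely than the control samples. Mean CPM was 157 ± 2.92 for control and 114 ± 13.03 for RUNX1. The log2 fold change was -0.46 with a standard error of 0.13 (edgeR, adjusted P = 0.0142). The difference passed the P-value threshold but not the fold threshold of 0.5. It passed both with TMM on microRNAs only (-0.65) and with library size alone (-1.15), where the median of all tested small RNAs moved from -0.06 to -0.76. Relative to the median of its own fit, the value was -0.40 with TMM on all small RNAs, -0.39 with library size alone and -0.57 with TMM on microRNAs only.

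hsa-miR-132-5p, the less abundant strand of MIR132, was read 45, 209 and 131 times in the control replicates and 120, 95 and 104 times in the RUNX1 replicates. Control levels were 21.5, 25.9 and 17.3 CPM, against RUNX1 levels of 10.4, 15.2 and 15.2 CPM. Here the gap between the groups was small next to the spread of the control samples. The mean went from 21.6 ± 4.34 to 13.6 ± 2.76 CPM, a log2 fold change of -0.68 with a standard error of 0.23 (edgeR, adjusted P = 0.0275). This call rests on 2 samples: without control replicate 2 the log2 fold change was -0.50 and no longer passed the P-value threshold in edgeR, and without RUNX1 replicate 1 it was -0.48 and passed neither threshold.

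**Figure D2:**
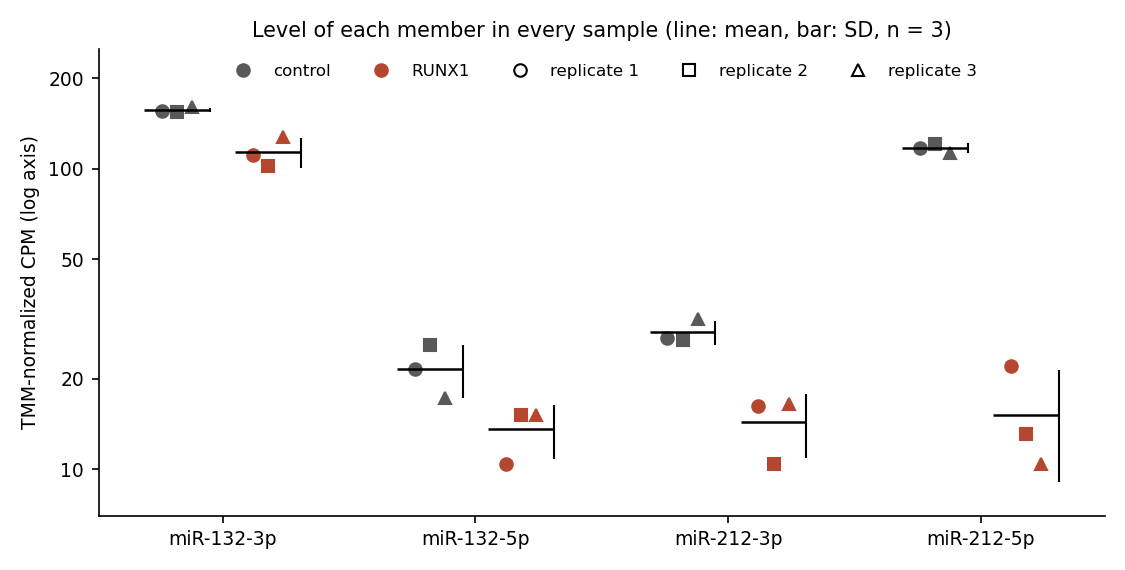
TMM-normalized CPM of each arm (log axis) is shown for the 3 control (grey) and 3 RUNX1 (red) samples, with the symbol giving the replicate number, the line the mean and the bar the SD. The RUNX1 samples lie below the control samples for all 4 arms, and the gap is widest for miR-212-5p, from 112 to 121 CPM in control to 10.4 to 22.1 CPM in RUNX1 samples.

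The order of the arms by level differed between the conditions. The mature arms are 21 to 23 bases long, so the CPM were compared without a length term, although ligation can favour some sequences over others. In control, hsa-miR-132-3p was highest, followed by hsa-miR-212-5p, hsa-miR-212-3p and hsa-miR-132-5p, and no 2 neighbours in this order overlapped. In RUNX1 samples, hsa-miR-132-3p remained highest with 102 to 128 CPM. The remaining 3 arms overlapped there, between 10.4 and 22.1 CPM, and could not be ordered.

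Added up, the arms of MIR132 went from 178 ± 2.16 CPM in control to 127 ± 13.8 CPM in RUNX1 samples. Those of MIR212 went from 146 ± 2.24 to 29.6 ± 7.78 CPM. For the cluster as a whole, the sums were 322, 329 and 322 CPM for control and 160, 141 and 170 CPM in RUNX1 samples. The groups did not overlap in any of these sums (P = 0.1 each, two-sided exact permutation test, the smallest value that 3 samples against 3 can give). Most of the loss was thus in counts of MIR212.

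Ratios between members within a sample do not depend on the scaling. The log2 ratio of the MIR132 arms to the MIR212 arms was 0.29 in each of control replicates 1 and 2 and 0.30 in control replicate 3. In RUNX1 samples it was 1.66, 2.32 and 2.41. The control samples were nearly equal in this ratio, and all RUNX1 samples were far above them, with a difference of 1.84 (P = 0.1, two-sided exact permutation test).

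The 3p arms, which share their seed, also differed in this way. The log2 ratio of hsa-miR-132-3p to hsa-miR-212-3p counts was 2.51, 2.53 and 2.34 for control and 2.78, 3.30 and 2.96 for RUNX1. The groups did not overlap, and the difference was 0.55 (P = 0.1, two-sided exact permutation test). All 6 pairs of members were compared by their log2 count ratio, and 4 pairs separated the conditions (exact permutation P = 0.1, Benjamini-Hochberg adjusted 0.15 over the 6). The pairs that overlapped were hsa-miR-132-3p with hsa-miR-132-5p and hsa-miR-132-5p with hsa-miR-212-3p (exact permutation P = 0.5, adjusted 0.5).

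The share of each arm in the cluster's counts shows the same data without any scaling. For hsa-miR-212-5p it was 36.6, 36.9 and 35.0% for control and 13.8, 9.30 and 6.09% for RUNX1. The 95% Wilson interval, which covers counting error only, was widest in control replicate 1 (33.0 to 40.3%) and was 12.3 to 15.5% in RUNX1 replicate 1. The spread among RUNX1 samples was therefore larger than counting error, and the gap to the control samples was larger still. The mean share fell by 26.4 percentage points, from 36.1 ± 1.01 to 9.75 ± 3.89% (P = 0.1, two-sided exact permutation test).

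hsa-miR-132-3p took up most of the difference, with 48.3, 47.1 and 49.8% for control and 69.5, 72.6 and 75.3% for RUNX1. Its mean share was 24.0 percentage points higher in RUNX1 samples (P = 0.1, two-sided exact permutation test). The shares of the less abundant arms overlapped between the conditions. hsa-miR-132-5p held 6.64 ± 1.26% in control and 8.74 ± 2.13% in RUNX1 samples (exact permutation P = 0.3), and hsa-miR-212-3p 8.83 ± 0.88% and 9.07 ± 1.49% (exact permutation P = 0.9).

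Of all microRNA counts, the 4 arms held 0.0507, 0.0530 and 0.0481% for control and 0.0132, 0.0114 and 0.0164% for RUNX1. The mean of the log2 shares differed by -1.91, RUNX1 minus control (P = 0.1, two-sided exact permutation test), and by -1.502 when hsa-miR-10a-5p was left out of the total. The cluster thus made up under 0.1% of the microRNA counts in every sample.

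The arms of a hairpin come from the same precursor, so their ratio asks whether they moved apart. It was tested with limma on the log2 ratio of 5p to 3p counts, each with 0.5 added, over the 144 hairpins that had both arms tested. Shifts of this ratio were widespread: 42.4% of the hairpins differed in either direction at an adjusted P-value under 0.05, 18.8% by a loss of 5p against 3p, and in 54.9% the groups did not overlap. MIR212 was among the 18.8%, with one of the larger shifts, and MIR132 did not pass.

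For MIR212, the log2 5p to 3p ratio was 2.10, 2.17 and 1.83 for control and 0.45, 0.33 and -0.67 for RUNX1. In counts, hsa-miR-212-5p was 4.32, 4.51 and 3.56 times hsa-miR-212-3p in control and 1.36, 1.26 and 0.628 times in RUNX1 samples. The 5p arm thus led in all control samples and in RUNX1 replicates 1 and 2, and the 3p arm led in RUNX1 replicate 3. The difference was -2.00 with a standard error of 0.32 (limma, adjusted P = 0.00369) and a 95% interval of -2.75 to -1.24. By size it ranked 8 of 144 hairpins, and in 7 hairpins, MIR212 included, the ratio fell at least as far. Such a fall does not need a loss of the 5p arm: in miR-766 the 5p arm was at 0.64 and the 3p arm at 2.76 in log2 fold change. The median difference over all hairpins was 0.01, and the median size was 0.61.

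For MIR132, the 3p arm led throughout. hsa-miR-132-3p was 7.22, 5.98 and 9.29 times hsa-miR-132-5p in control and 10.7, 6.74 and 8.43 times in RUNX1 samples, so the groups overlapped. The difference in the log2 5p to 3p ratio was -0.20 with a standard error of 0.25 (limma, adjusted P = 0.555). Its 95% interval of -0.79 to 0.39 leaves room for a shift of that size either way. By size it ranked 113 of 144.

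Hairpins that lie close together are often made from a single transcript. Among tested hairpins with an entry in the RefSeq table used, 65 pairs lay within 1000 bases of each other on the same strand, and the log2 fold changes of their more abundant arms differed by a median of 0.63. MIR132 and MIR212, taken as hsa-miR-132-3p and hsa-miR-212-5p, differed by 2.46 and ranked 6 among these pairs. Between the 3p arms of both hairpins the difference in log2 fold change was 0.53, which ranked 19 of 41 pairs with a median of 0.50. The cluster thus stood high among its like by the more abundant arm and in the middle by the 3p arm. Several pairs come from the same cluster and some of these microRNAs have more than 1 locus, so the pairs are a description only.

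The profile over the 6 samples was also compared with those of all tested microRNAs, as the root mean square difference in centred log2 CPM. Nearest to hsa-miR-132-3p were hsa-miR-19b-3p (0.0422), hsa-miR-27a-5p (0.0736) and hsa-miR-17-5p (0.0818), of which the first and last belong to the proliferation-linked miR-17-92 family of clusters. Nearest to hsa-miR-132-5p were hsa-miR-7114-3p (0.175), hsa-miR-224-3p (0.208) and a predicted microRNA (0.215). This predicted entry had a log2 fold change of -0.55, the same as hsa-miR-130b-5p (-0.55). Nearest to hsa-miR-212-3p were hsa-miR-3684 (0.121), hsa-miR-3667-5p (0.147) and a predicted microRNA (0.184). The counts of this predicted entry repeat those of hsa-miR-151a-5p, apart from 630 against 629 in RUNX1 replicate 3. It is therefore not a separate microRNA. Predicted entries also repeat hsa-miR-27b-3p and hsa-miR-146b-3p. Such repeats remained among the 598 tested microRNAs and in the microRNA counts. hsa-miR-212-5p had no neighbour as near, with hsa-miR-7976 at 0.254, hsa-miR-488-5p at 0.322 and hsa-miR-4659a-3p at 0.360. Some neighbours had few reads, so that their profiles are imprecise. Mean CPM in control and RUNX1 samples was 1.46 and 0.03 for hsa-miR-488-5p, and 1.78 and 1.17 for hsa-miR-7114-3p. None of the members was among the 3 nearest of another: hsa-miR-132-3p and hsa-miR-132-5p were 0.278 apart, hsa-miR-132-3p and hsa-miR-212-3p 0.313, and hsa-miR-212-3p and hsa-miR-212-5p 1.06.

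The only other microRNAs within 500 kb of the cluster, by the RefSeq table, are the arms of miR-22. Both rose in RUNX1 samples. hsa-miR-22-3p went from 39322 ± 1336 to 63393 ± 3626 CPM, a log2 fold change of 0.69 with a standard error of 0.11 (edgeR, adjusted P = 0.000545). hsa-miR-22-5p had a log2 fold change of 0.69 as well (edgeR, adjusted P = 0.00275). The MIR22 hairpin lies 335920 bases from the cluster, and its arms moved in the direction opposite to the 3 altered arms of the cluster.

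Of 12 microRNAs known to be enriched in neurons, the tissue in which the cluster is best known, 3 passed the filter. Of these, hsa-miR-128-3p (log2 fold change 1.01) and hsa-miR-219a-5p (1.77) rose, none fell, and hsa-miR-134-5p (0.67, edgeR adjusted P = 0.0825) was not altered, beside the 33.4% of all tested microRNAs altered upwards. However, hsa-miR-219a-5p passed the filter level in all RUNX1 samples but in only 2 control samples. Of the 2 that passed it in all control samples, 1 rose. hsa-miR-124-3p, a defining microRNA of neurons, was at 0 counts in all 6 samples. The list's summed level was 69.2 to 78.0 CPM in control and 103 to 167 CPM in RUNX1 samples.

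Of 8 microRNAs tied to innate immune signalling, in which miR-132 also takes part, 7 were tested. Of these, 5 rose and none fell, beside the 33.4% of all tested microRNAs altered upwards. hsa-miR-187-3p, with 0 to 2 counts in control and 40 to 90 in RUNX1 samples, passed the filter through the RUNX1 samples alone and could only rise. Of the 5 that passed the filter level in all control samples, 3 rose. These 3 were hsa-miR-146a-5p, a brake on Toll-like receptor signalling (log2 fold change 4.20), hsa-miR-146b-5p of the same family (0.93) and hsa-miR-223-3p (0.91). hsa-miR-155-5p, which promotes inflammatory responses, rose with 0.95 from 1.04 ± 0.18 to 2.04 ± 0.39 CPM. It was scarce, however, and passed the filter level in only 1 control and 2 RUNX1 samples. hsa-miR-21-5p (0.31) and hsa-miR-147b (-0.30) were not altered. All 4 arms of the cluster passed the filter level in all 6 samples.

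The cell type was checked with erythroid microRNAs. Of 7, 5 were tested, of which hsa-miR-451a, hsa-miR-144-5p and hsa-miR-486-5p fell and hsa-miR-144-3p rose, beside the 22.6% of all tested microRNAs altered downwards and the 33.4% altered upwards. Their summed level was 4478 to 5108 CPM in control and 2386 to 3785 CPM in RUNX1 samples. Markers of cells outside blood moved with the condition as well. Of 14 such microRNAs, 8 were tested, 7 rose and none fell, beside the same 33.4% of all tested microRNAs altered upwards. hsa-miR-1 and hsa-miR-205-5p did not pass the filter level in all control samples, and of the other 6 tested, 5 rose. The sum over the list went from 198 to 207 CPM in control to 2290 to 2536 CPM in RUNX1 samples, most of it hsa-miR-143-3p. hsa-miR-206 of skeletal muscle and hsa-miR-124-3p were at 0 in all samples. The part of these markers in the values of the miR-132/miR-212 cluster was not tested. In bulk samples, fewer cells that express a microRNA and less of it per cell cannot be told apart.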

How the data were processed

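Small RNA of K562 cells was sequenced by the authors from TruSeq Small RNA libraries (1000 ng of total RNA) on a HiSeq2000. The deposited values are raw read counts per small RNA, made by the authors with the OASIS platform. The labels name CASAVA 1.8.2 and hg19, and the aligner is not given in the sources used here. The members and lists were chosen with earlier results of these data known. Groups and replicate numbers come from the sample titles; the library names of RUNX1 replicates 1 and 2 carry the same number.

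Computation used R 4.3.3 with edgeR 4.0.16 (filterByExpr with minimum count 10 and minimum total count 15, TMM, glmQLFit and glmQLFTest, condition as the only term; 947 small RNAs tested), limma 3.58.1 and DESeq2 1.42.0, and Python 3.11.15 with SciPy 1.17.1. The P-values were adjusted by Benjamini-Hochberg over all tested small RNAs, or over all 144 hairpins for arm ratios. Standard errors were computed as the size of the log2 fold change over the square root of the F statistic. The tests set the difference between the conditions against the spread among 3 transductions per condition. On simulated data with a log2 fold change of 1.5, edgeR recovered 99.3% of 150 changed small RNAs and called 4.27% of the unchanged ones. The arm ratio test recovered 95.5% of 44 at the same simulated size. The median log2 fold change of the members (-0.83) and the arm ratio difference of MIR132 (-0.20) were smaller in size. The recovery rates therefore cannot be carried over to changes that small. The simulation also gave every small RNA the same dispersion, alike in both conditions, so its rates may not hold for these data.

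Named microRNAs are the 4 members, the 3 tested microRNAs with the nearest profile to each, the hairpins next to MIR132 and MIR212 by arm ratio change, microRNAs within 500 kb, and the lists. miR-224 was added as a hairpin whose arms fell in a like way. Alternatives were DESeq2, RLE factors, library size only, TMM on microRNAs only, hsa-miR-10a-5p left out, other count filters, calls by the adjusted P-value, a fold threshold of 1 on the log2 scale, a block for the replicate number, a pseudocount of 1, a differential exon test of the arms, other denominators and each replicate left out.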

Additional observations from a re-analysis of the deposited data

How the results depend on the processing

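Of 114 values under alternative processing, 106 counted as the same result, which does not mean a value of similar size. They kept their direction and their side of the threshold, moved by less than 1 SD where there was no test, or, for the number of altered members, stayed within 1.5 times. Of the rest, 2 gained a call, 4 lost one, 2 moved, and none reversed. Among those counted as the same, library size only gave -1.38 in place of -0.68 for hsa-miR-132-5p. For hsa-miR-212-3p it gave -1.68 in place of -0.99. Calls by the adjusted P-value or by a fold threshold of 1 reuse the reported fold changes, so only the call could differ there. The number of altered members was 4 in place of 3 with library size only and with TMM on microRNAs only, and 2 without control replicate 2 or RUNX1 replicate 1. The log2 fold change of hsa-miR-132-3p passed the fold threshold with library size only (-1.15) and with TMM on microRNAs only (-0.65). With a log2 fold change of at least 1, hsa-miR-132-5p (-0.68) and hsa-miR-212-3p (-0.99) lost their calls, and 1 member was altered in place of 3. The share of microRNA counts on the cluster went from -1.91 to -1.502 on the log2 scale without hsa-miR-10a-5p, which changes the denominator.

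With each replicate left out in turn, the log2 fold change ranged from -0.48 to -0.35 for hsa-miR-132-3p, from -0.81 to -0.48 for hsa-miR-132-5p, from -1.07 to -0.76 for hsa-miR-212-3p and from -3.29 to -2.59 for hsa-miR-212-5p, and 2 to 3 members were altered. hsa-miR-132-5p lost its call without control replicate 2 (-0.50) and without RUNX1 replicate 1 (-0.48). The arm ratio difference ranged from -2.20 to -1.64 for MIR212 and from -0.37 to -0.03 for MIR132, the difference in the log2 ratio of hsa-miR-132-3p to hsa-miR-212-3p from 0.41 to 0.67, and the log2 share from -2.05 to -1.78.

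Same-numbered control and RUNX1 samples did not deviate together (correlations -0.03, -0.09 and 0.02), so no block was used in the main fit. These correlations cannot show whether same-numbered samples were handled together. A replicate block in the fit gave log2 fold changes of -0.47, -0.65, -1.02 and -3.001 for hsa-miR-132-3p, hsa-miR-132-5p, hsa-miR-212-3p and hsa-miR-212-5p, and no call of a member changed. The arm ratio differences stayed at -0.20 for MIR132 and -2.00 for MIR212. With equal groups a block cannot change these differences, only their standard errors. The depth of control replicate 1, with 45 to 325 counts per arm, limits the precision of its shares.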

Other observations

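Next to MIR212 by the size of the change in arm ratio stood miR-766, whose log2 5p to 3p ratio differed by -2.03, and miR-335, which moved the other way by 1.99 (limma, adjusted P = 0.00171 and 0.00277). In miR-766, both arms had higher levels in RUNX1 samples, with log2 fold changes of 0.64 for the 5p and 2.76 for the 3p arm. In miR-335, the 3p arm was at -2.12 and the 5p arm at -0.15. MIR212 differed from both, since each of its arms fell, the 5p arm further. This pattern was not particular to MIR212. miR-224, which ranked 6 by size, differed by -2.05, with log2 fold changes of -2.78 for the 5p and -0.76 for the 3p arm. Of the 144 hairpins, 12 had both arms altered downwards, and 8 had arms altered in opposite directions.

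In 77 hairpins the 5p arm led in all control samples, and in 1 of these the 3p arm led in all RUNX1 samples. MIR212 was among the 77, and its 3p arm led in 1 of 3 RUNX1 samples.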
